A study of Saccharomyces cerevisiae with 56 samples.

Results

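Binding of the PDZ3 domain of PSD-95, the third of its PDZ domains, was compared between a construct that carried both extensions of the domain (NC) and the domain alone (PDZ3), for every missense variant measured in both. Variants were matched by their mutated residues, and a variant entered when it held 1 or 2 substitutions, no stop codon and a usable error in both constructs. This gave 36538 variants, of which 1143 were single and 35395 were double substitutions, out of 384696 entries in the deposited table. PDZ3 had 1144 single and 37671 double missense variants in the binding assay, and NC had 1175 and 46128, so nearly all of the domain-alone variants found their partner.

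The study expressed a block of 66 residues, R312 to I377 in PSD-95 numbering, in yeast (strain BY4742) as PDZ3, with an extension named N, with one named C, or with both. Each construct went through a bindingPCA and an abundancePCA, which are growth competitions of pooled variants in methotrexate over about 5 generations at 30 °C. In such assays the reporter enzyme is restored in proportion to the bound or to the soluble protein, so that growth follows the complex or the abundance. For each construct and assay there were 3 input and 3 output cultures, named as biological replicates, which the authors merged into 1 score and 1 error per variant. PDZ3 and NC shared the strain, medium, drug and assay and differed in the extensions only as far as the labels tell. Neither the extensions nor the binding partner are described further in the labels, and the assay reports growth, not an affinity.

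A PDZ domain is a small fold of strands and helices that binds the C-terminal end of another protein. The end of the ligand lies as an added strand between strand 2 and helix 2 of the domain, and its carboxylate group is held by the backbone of a loop rich in glycine just before strand 2. A histidine at the start of helix 2, H372 in PSD-95, contacts a ligand side chain and is known for setting which ligands are bound. Binding can be lost because the groove is altered or because less folded protein is present, and for that reason the abundance scores are given beside the binding scores below.

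The cultures behind the compared sets differed in growth. The wild type grew at 0.134 ± 0.00386 in PDZ3 and at 0.153 ± 0.000651 in NC (the authors' growth rates, time unit not stated), and the median single nonsense variant scored -1.52 and -0.891. Scores were therefore scaled within each set, so that 0 is the wild type of the same construct and -1 its median nonsense variant, and all values below are on that scale unless said otherwise. A rise thus brings a variant closer to the wild type of its construct. In binding, a unit of the unscaled score stands for a growth rate of 0.102 in PDZ3 and 0.168 in NC. Changes on the unscaled score, given below as an alternative, therefore mix unlike units. Errors after ± are standard errors from the authors' errors. Those of wild type and scale are added for changes and for means, but not for the score of an individual variant. The median error of a deposited score was 0.0484 for singles and 0.197 for doubles in PDZ3, against 0.00855 and 0.0653 in NC, so that the precision of a change was set mainly by PDZ3. Of the synonymous variants, 3.85% in PDZ3 and 10.2% in NC lay past the same test against the wild type, with scaled means of 0.0276 and 0.0166. The table holds neither read counts nor values by culture, so the depth is unknown. Each test was a two-sided normal test with Benjamini-Hochberg adjustment at 0.05.

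Substitutions were far less harmful to binding when both extensions were present. Over the 1143 single substitutions the mean score was -0.459 ± 0.0165 in PDZ3 and -0.168 ± 0.00579 in NC, a rise of 0.291 ± 0.0175. Over the 35395 doubles the mean was -0.849 ± 0.0179 in PDZ3 and -0.462 ± 0.0125 in NC, a rise of 0.387 ± 0.0219. Of all 36538 variants, 47.9% were higher and 0.49% lower in NC past the test. Among singles 723 were higher, 27 were lower and 393 did not pass, and among doubles 16780 were higher and 152 were lower. With scores below -0.5 called harmful, the harmful share fell from 43.5% to 13.0% of singles and from 84.9% to 43.0% of doubles. With scores above -0.1 called near the wild type, that share went from 25.7% to 63.3% of singles and from 3.97% to 26.5% of doubles.

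The move was almost wholly in a single direction. Of the 497 singles harmful in PDZ3, 147 were still harmful in NC, 192 lay between both limits and 158 were near the wild type. Of the 294 singles near the wild type in PDZ3, 288 were near it in NC as well, 6 lay between the limits and 0 were harmful. The singles that went from harmful to near the wild type with a change past the test numbered 156, at 34 positions, and 0 singles went the other way, whether past the test or not. They were most frequent at G335 (14 of 19 substitutions), L360 (13), R312 (12), D366 (11), G345 (9) and I314 (8). The singles harmful in both constructs were most frequent at G329 (17 of 19), H372 (14), I327 (14), I359 (11) and G324 (10).

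**Figure D1:**
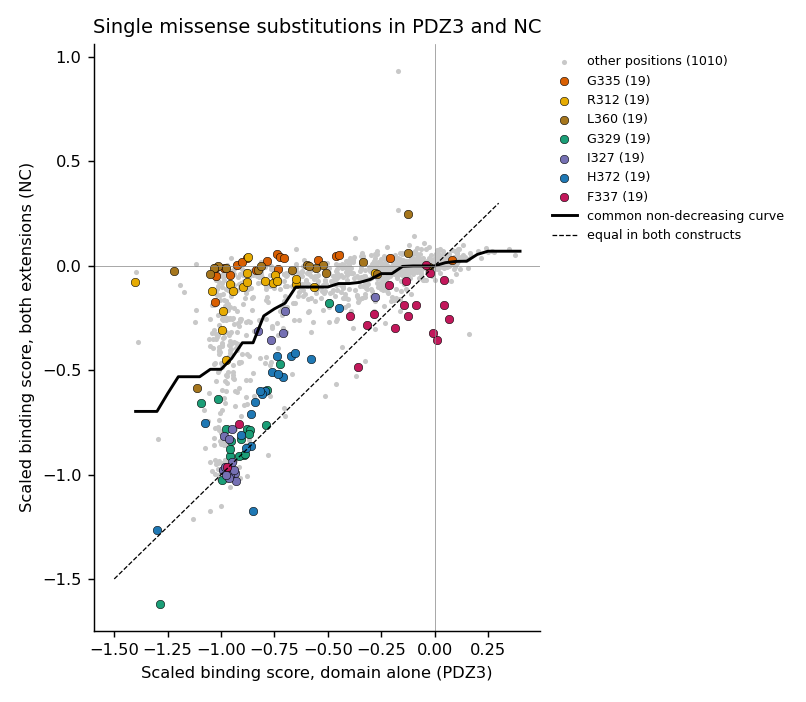
Scaled binding score of each of the 1143 single substitutions in PDZ3 (horizontal) and in NC (vertical), with 0 as the wild type and -1 as the median nonsense variant. The solid line is the non-decreasing curve fitted over all singles, the dashed line marks equal scores, and coloured points are the substitutions at 7 positions: G335, R312 and L360 lie mostly above the curve, G329, I327, H372 and F337 below it.

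By position, the mean over single substitutions rose at 86.9% of the 61 positions tested (53) and fell at 1.64% (1 position), with a median change of 0.303. Each mean was over 12 to 19 substitutions. G319, D332, G351, G356 and N363 had no single substitution in both sets. The largest rises were at G335, in the loop between strands 2 and 3 (-0.728 to 0.00448, a rise of 0.732 ± 0.0188), and at R312, the first residue of the block (-0.843 to -0.111, a rise of 0.732 ± 0.0195). They were followed by L360 (0.627 ± 0.0226) and V362 (0.565 ± 0.0208) around strand 4, the acidic residue D357 (0.563 ± 0.0193), the glycine G345 (0.563 ± 0.0187), I314 of strand 1 (0.560 ± 0.0178) and I341 of strand 3 (0.538 ± 0.0203). At the other end stood F337 (-0.0645 ± 0.0228), G322 (-0.0177 ± 0.0320), V328 (-0.00616 ± 0.0228), T321 (0.00792 ± 0.0262), I377 (0.0254 ± 0.0296), K355 (0.0276 ± 0.0252), R354 (0.0463 ± 0.0240) and Q374 (0.0646 ± 0.0255). Of these, F337 fell and Q374 rose past the test, and the other 6 did not pass it. The change at Q374 rests on the proline: without Q374P, a choice made after seeing the data, it was 0.0169 ± 0.0267 and did not pass. S320, with 12 substitutions, did not pass either (0.149 ± 0.0827).

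**Figure D2:**
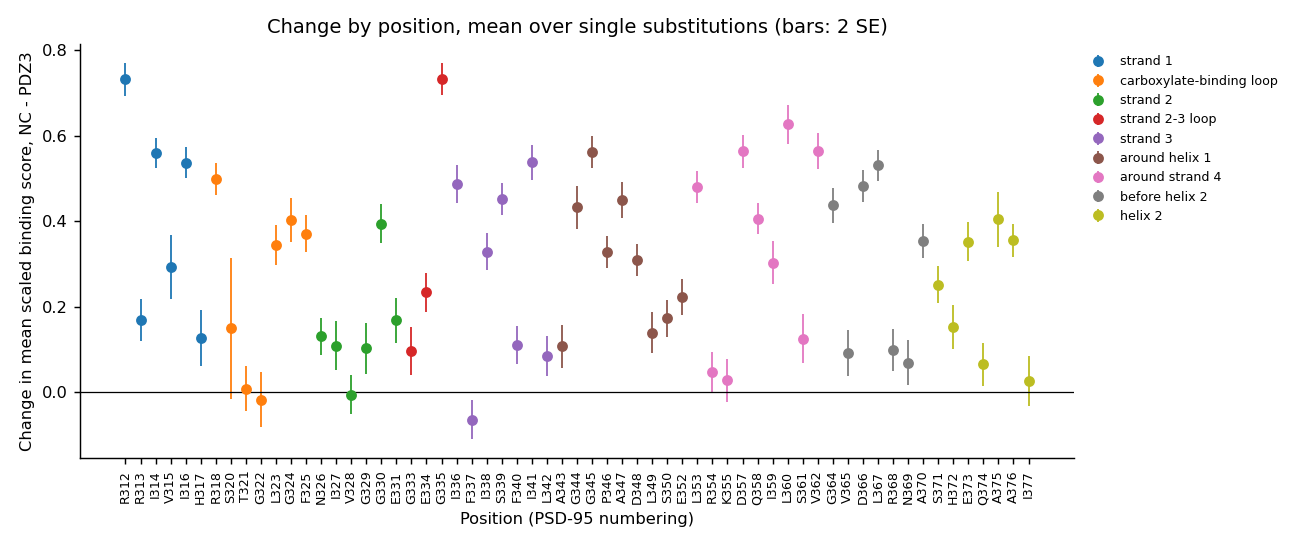
Change of the mean scaled binding score, NC minus PDZ3, at each of the 61 positions in order along the domain, coloured by region, with bars of 2 standard errors. G335 and R312 lie highest at 0.732, and F337 is the only position whose bar lies wholly below 0.

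Positions near 0 in both constructs differ from positions that were low in both. T321 had means of 0.000973 in PDZ3 and 0.00890 in NC, G322 had 0.0688 and 0.0510, I377 had -0.00810 and 0.0173, and K355 had -0.0844 and -0.0568. V328 had -0.389 in PDZ3 and -0.395 in NC. To set positions of like starting score side by side, a non-decreasing curve of the NC score on the PDZ3 score was fitted over all singles, and the mean distance of each position from it was taken as a description with no test. The positions furthest below the curve were G329 (-0.411), I327 (-0.376), H372 (-0.360), V328 (-0.293), F337 (-0.211) and I359 (-0.162). Those furthest above it were G335 (0.275), R312 (0.219), L360 (0.203), I314 (0.180), L367 (0.174) and G364 (0.154). Without G364C, also a later choice, G364 lay 0.110 above it, less than the 0.151 of I316. The spread of single substitutions around the curve had an SD of 0.208.

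The regions of the fold differed in how far they rose. In strand 2, against which the ligand lies, 5 of 6 positions were higher, yet the median change was 0.120 against 0.303 over all positions, and 6 of 6 lay below the common curve. Over all 61 positions 86.9% were higher and 25 lay below the curve, and the regional counts are to be read against these. The share of harmful substitutions in strand 2 went from 57.9% to 43.0%, while it went from 42.3% to 0.901% in strand 1 and from 26.9% to 1.54% in the segment before helix 2. In strand 1, 6 of 6 positions rose, with a median of 0.415, and 0 of 6 lay below the curve. The carboxylate-binding loop had 4 of 7 positions higher with a median of 0.344, strand 3 had 6 of 7 higher and F337 lower with 0.329, and helix 2 had 6 of 7 higher with 0.251. In the segments around helix 1 and strand 4, 9 of 9 and 7 of 9 positions were higher, with medians of 0.309 and 0.406.

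A list of ligand contacts and one of the hydrophobic core, which holds the fold together, were drawn up from general knowledge of the PDZ3 fold and not from a structure of these constructs with their partner. Both were low in PDZ3, with median position scores of -0.659 and -0.802. In NC the medians were -0.337 and -0.369. Of the 12 contact positions, 10 were higher and 0 lower, with a median change of 0.256, and 9 lay below the common curve. Of all 61 positions 86.9% were higher and 41.0% (25) lay below the curve. Of the 12 core positions, 12 were higher, with a median change of 0.465, and 6 lay below the curve. I327 and F325 stand in both lists. Over all positions the median change was 0.303.

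Among the contact residues, R318, an arginine of the carboxylate-binding loop, rose most, from -0.684 to -0.185 (0.499 ± 0.0189). S339 of strand 3 rose from -0.573 to -0.121 (0.452 ± 0.0187). In the loop, the glycine G324 went from -0.972 to -0.568 (0.403 ± 0.0260), F325 from -0.803 to -0.432 (0.371 ± 0.0218) and L323 from -0.820 to -0.475 (0.344 ± 0.0230). A376 of helix 2 went from -0.634 to -0.279 (0.355 ± 0.0192). The smaller rises among contacts were those of E331 (0.168 ± 0.0262), H372 (0.152 ± 0.0255), N326 (0.131 ± 0.0218) and I327 (0.109 ± 0.0283). All of these passed the test, and V328 and G322 did not. With the median over substitutions the change at I327 was 0.0153 ± 0.0332 and did not pass.

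Among the core residues the order was L360 (0.627), V362 (0.565), I314 (0.560), I316 (0.537 ± 0.0183), I336 (0.487 ± 0.0221), L353 (0.480 ± 0.0189), A347 (0.450 ± 0.0209), A375 (0.404 ± 0.0318), F325 (0.371), I338 (0.329 ± 0.0216), I359 (0.303 ± 0.0253) and I327 (0.109). Their levels in NC were spread. Substitutions of L360 had a mean of -0.0245 in NC and those of I314 one of -0.0656, near the wild type. I359 ended at -0.587, A375 at -0.476, I338 at -0.429 and I336 at -0.386. At I338 the substitutions were spread over the whole range in NC, from -1.005 for tryptophan to 0.0611 for cysteine (SD 0.449 over 19 substitutions).

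G335 and R312 show what a large rise looked like substitution by substitution. At G335, 18 of 19 substitutions were higher in NC, and all 19 lay between -0.172 (G335I) and 0.0573 (G335N) there, against -1.03 (G335Y) to 0.0831 (G335P) in PDZ3. The proline, otherwise the most harmful class, was the only substitution above the wild type in PDZ3 at this site, and it did not change past the test (0.0831 ± 0.0307 to 0.0268 ± 0.00819). G335Y went from -1.03 ± 0.0400 to -0.00894 ± 0.0126, and G335L from -0.984 ± 0.0292 to -0.00952 ± 0.00726. At R312, 19 of 19 substitutions were higher. The most conservative, R312K, had the best score in PDZ3 (-0.280 ± 0.0262) and -0.0351 ± 0.00558 in NC. R312F went from -0.872 ± 0.0265 to 0.0398 ± 0.00682, the best in NC, and R312P stayed lowest there at -0.450 ± 0.00608.

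**Figure D3:**
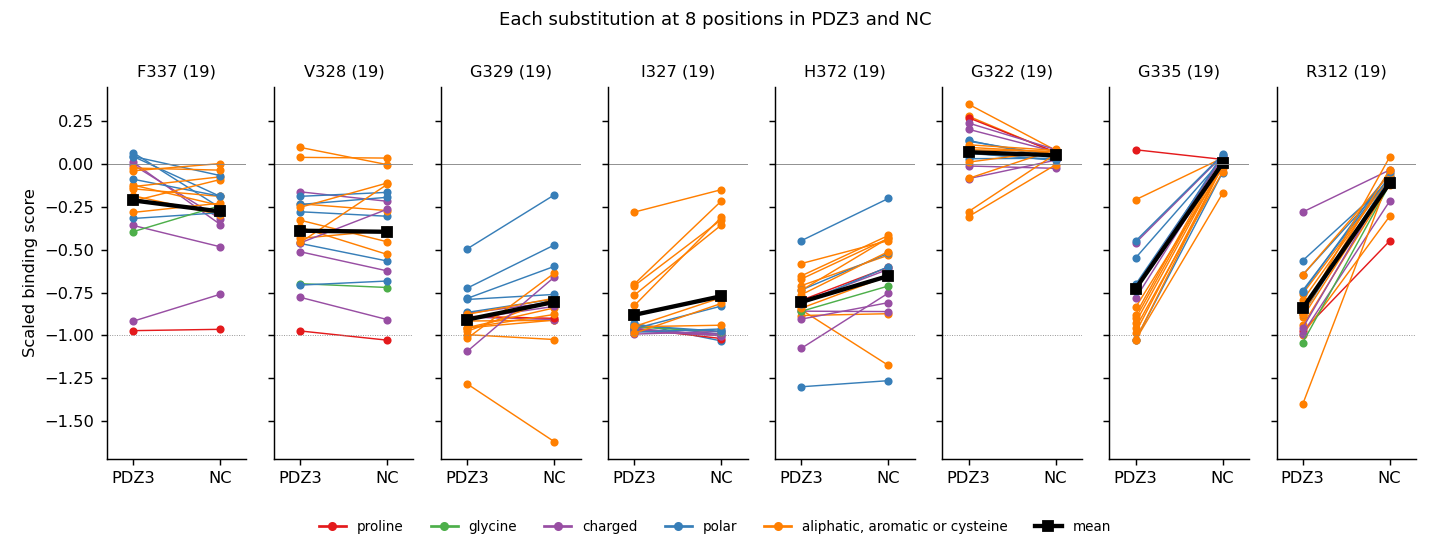
Scaled binding score of each of the 19 single substitutions at 8 positions, in PDZ3 and in NC, joined by lines and coloured by the class of the residue put in, with the mean in black. Lines at G335 mostly end near 0 in NC, and those at R312 end between -0.450 and 0.0398. Lines at G329, I327 and H372 mostly stay low, and F337 holds several lines that run from near 0 down to between -0.189 and -0.353.

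The substitutions of I327 differed by the kind of residue. Of its 8 substitutions to non-polar residues or cysteine, 7 rose past the test and I327W did not. I327V went from -0.700 ± 0.0257 to -0.215 ± 0.00517, I327L went from -0.825 ± 0.0254 to -0.310 ± 0.00502, I327M from -0.710 ± 0.0260 to -0.324 ± 0.00567 and I327Y from -0.764 ± 0.0267 to -0.355 ± 0.00614. I327F was mildest in both constructs (-0.280 ± 0.0263 and -0.1496 ± 0.00563). The 4 charged substitutions had means of -0.974 in PDZ3 and -0.994 in NC, and the 5 polar ones -0.950 and -0.959. Of these 9, I327Q alone passed the test (-0.961 ± 0.0265 to -0.829 ± 0.00925). I327T and I327W had abundance scores near the wild type in both constructs (-0.0437 and -0.00235 for I327T, -0.0135 and 0.00821 for I327W). Their binding scores in NC were -0.977 ± 0.00915 and -0.941 ± 0.0107, close to the nonsense level.

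H372 and G329 were low in binding, while most of their substitutions were near the wild type in abundance. The mean of H372 was -0.804 in PDZ3 and -0.653 in NC in binding, against -0.00227 and -0.00945 in abundance. H372Q was the mildest substitution in both (-0.447 ± 0.0281 and -0.201 ± 0.00638), and the aliphatic and aromatic H372V, H372F, H372I and H372L ended in NC between -0.447 and -0.417. H372W stayed at -0.884 and -0.873. H372Y was the only substitution of H372 lower in NC, from -0.851 ± 0.0298 to -1.18 ± 0.0249 (a change of -0.324 ± 0.0529), with abundance scores of 0.0985 and -0.0133. On the unscaled score, whose unit differs between the constructs, the change of H372Y was 0.250 ± 0.0633, in the other direction. With a mild partner substitution in doubles, H372Y cost a median of -0.964 over 6 doubles in PDZ3 and -0.887 over 58 doubles in NC, so that the fall below the nonsense level was not seen there. The mean of G329 was -0.907 in PDZ3 and -0.805 in NC in binding, against -0.146 and -0.0475 in abundance. In PDZ3, 15 of the 19 substitutions of G329 were near the wild type in abundance, and G329W (-1.01), G329F (-0.809), G329Y (-0.604) and G329I (-0.236) were not. The small polar G329S (-0.494 ± 0.0272 to -0.180 ± 0.00554) and G329T (-0.724 ± 0.0290 to -0.472 ± 0.00687) were the mildest there. G329A, the smallest change in size, stayed at -0.783 ± 0.00912 in NC. Its neighbour G330, known from engineered changes of ligand preference, rose at 19 of 19 substitutions, from a mean of -0.853 to -0.459 (0.394 ± 0.0228), and the proline there was mildest in both constructs (-0.455 and -0.0536).

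F337, a phenylalanine of strand 3, was the only position whose mean was lower in NC, -0.213 in PDZ3 and -0.277 in NC. The change at F337 did not pass the test with errors multiplied by 2 (-0.0645 ± 0.0432) or with the median over substitutions (-0.0441 ± 0.0247). On the unscaled score, whose unit differs between the constructs, the change was 0.0771 ± 0.0396. With the growth rate relative to the wild type, F337 kept its direction and call. The substitutions did not move together. F337K went from 0.00949 ± 0.0288 to -0.353 ± 0.0125 (a change of -0.363 ± 0.0414), F337T from 0.0657 ± 0.0277 to -0.256 ± 0.0101, F337R from -0.00596 ± 0.0270 to -0.320 ± 0.00771 and F337S from 0.0435 ± 0.0274 to -0.189 ± 0.00794, and all 4 passed the test. F337E, F337V, F337I, F337H and F337Q were lower as well, with changes from -0.125 (F337E) to -0.0990 (F337Q). F337G, F337D and F337L were higher, and 7 did not pass the test. Tyrosine and methionine left binding in NC at 0.00260 ± 0.00955 (F337Y) and -0.0358 ± 0.00979 (F337M).

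The doubles that held F337 did not fall as a whole: the mean of the 1146 doubles at F337 went from -0.612 in PDZ3 to -0.430 in NC. This rise of 0.182 was small beside other positions. The mean of doubles rose at each of the 61 positions, by 0.109 to 0.761 with a median of 0.414. Read through doubles with a mild partner, 9 of the 19 substitutions of F337 were lower in NC and 10 higher, with no test, and 8 of the 9 called lower as singles were among the lower. F337I was the exception, with -0.377 and -0.336. With a mild partner in doubles, F337K cost a median of -0.103 over 14 doubles in PDZ3 and -0.415 over 52 in NC, F337R -0.0797 over 14 and -0.381 over 58, and F337T -0.00360 over 13 and -0.264 over 57. Of the 152 doubles lower in NC, 57 (37.5%) held a substitution of F337, which is 4.97% of the 1146 doubles at that position against 0.429% of all doubles. In abundance F337K went the other way, from -0.156 to -0.00911, and the mean of F337 from -0.331 to -0.136.

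The 27 singles that were lower in NC lay at few positions: 9 at F337, 4 at G322, 3 at V328, 2 each at I338, K355 and Q374, and 1 each at F325, N326, G329, H372 and I377. Of the 27, 15 had scored above the wild type in PDZ3. Some of these fell toward 0, and others, such as F337K, F337T and F337S, fell below it. Q374H went from 0.378 ± 0.0712 to 0.0514 ± 0.00776 and G322A from 0.279 ± 0.0470 to 0.0666 ± 0.0107. G322P went from 0.270 ± 0.0502 to 0.0691 ± 0.0209. None of these 3 passed the test with errors multiplied by 2. Q374H with a mild partner had a median of -0.309 over 19 doubles in PDZ3, on the other side of the wild type from its own single score. Of the 27, 15 ended below -0.1 in NC, and F337K, F337T and F337S belong to both groups of 15.

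The largest rises among singles with an error of the change under 0.1 were those of I314N (-1.3997 ± 0.0451 to -0.0284 ± 0.00654), R312M (-1.403 ± 0.0311 to -0.0791 ± 0.00573), L360E (-1.22 ± 0.0695 to -0.0271 ± 0.0172), G364V (-1.12 ± 0.0386 to 0.00768 ± 0.00984), I338M (-1.19 ± 0.0347 to -0.0908 ± 0.00724), I336M (-1.17 ± 0.0304 to -0.128 ± 0.00602) and L353P (-1.02 ± 0.0264 to 0.00438 ± 0.00542). Several of these lay below the nonsense level in PDZ3, where 14 singles in all scored below -1.1. Read through doubles with a mild partner, the PDZ3 values were -0.838 for I314N, -0.850 for R312M, -0.863 for I338M and -0.747 for I336M, and the NC values were -0.0962, -0.222, -0.229 and -0.337. The rises of these substitutions are therefore smaller in the doubles. G364C went from -0.172 ± 0.0475 to 0.935 ± 0.0721 in NC, far above any other single, while its doubles with a mild partner had a median of -0.0178 over 36 in NC. L360D, L360A, L360G and L360E, which put acidic or small residues into a leucine of the core list, all lay between -1.22 and -1.01 in PDZ3 and between -0.0407 and -0.000391 in NC.

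By the residue put in, the mean change had a narrower range than by position. Prolines went from a mean of -0.731 to -0.393 (59 substitutions, a rise of 0.338 ± 0.0208), glycines from -0.484 to -0.146 (51, 0.338 ± 0.0178), polar residues from -0.431 to -0.143 (289, 0.288 ± 0.0178), non-polar ones and cysteine from -0.424 to -0.122 (517, 0.302 ± 0.0177) and charged residues from -0.497 to -0.252 (227, 0.245 ± 0.0182). Each class rose past the test. In NC prolines and charged residues kept the largest harmful shares, 33.9% and 23.3%, against 8.51% of the non-polar substitutions. L353P and R354P, neighbours before strand 4, had opposite outcomes: L353P ended at 0.00438 in NC, and R354P was the lowest substitution of its position in both constructs, at -0.960 in PDZ3 and -1.06 in NC.

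The same positions were then read in abundance, with substitutions measured in all 4 sets, to ask where the change of binding differed from the change of abundance. Of the 60 positions that could be compared, 28.3% changed more in binding (17) and 21.7% changed less (13), past the test of the difference itself. The balance depends on the scale, since on the unscaled score 39 changed more in binding and 3 less. Of the synonymous variants in abundance, 30.1% in PDZ3 and 5.88% in NC lay past the test against the wild type. Their scaled means were 0.0318 in PDZ3 and 0.0185 in NC, above the wild type. Whether the share in PDZ3 comes from this offset or from errors that are too small was not tested. With errors widened by the scatter of nonsense variants, 14 positions changed more in binding and 10 less. The change was larger in binding at A376 (0.355 in binding and 0.0597 in abundance, a difference of 0.296 ± 0.0203), E373 (0.351 and 0.101, 0.250 ± 0.0308), R312 (0.732 and 0.514, 0.218 ± 0.0346), E334 (0.233 and 0.0245, 0.209 ± 0.0269), H372 (0.152 and -0.00719, 0.159 ± 0.0259) and D357 (0.563 and 0.417, 0.146 ± 0.0400). A376, E373 and H372 lie on helix 2, where substitutions hardly touched abundance in PDZ3 at A376 (-0.0876) and H372 (-0.00227). The same held at E334 (-0.0681), so that abundance had little room to rise at A376, H372 and E334.

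The change was smaller in binding at G322 (-0.0177 in binding and 0.436 in abundance, a difference of -0.453 ± 0.0517), G324 (0.403 and 0.845, -0.441 ± 0.0544), I327 (0.109 and 0.482, -0.373 ± 0.0382), F337 (-0.0645 and 0.196, -0.260 ± 0.0284), L323 (0.344 and 0.566, -0.222 ± 0.0362) and I341 (0.538 and 0.734, -0.196 ± 0.0410). On the unscaled score, whose unit differs between the constructs, the change at G324, binding minus abundance, did not pass the test (-0.0261 ± 0.0398). Those at I327, L323 and I341 were then 0.0865, 0.163 and 0.130, in the other direction. G322, G324 and L323 belong to the carboxylate-binding loop, and I327 lies in strand 2. Substitutions of G324 had a mean abundance of -0.189 in NC but a mean binding of -0.568, and those of I327 had -0.0727 and -0.771. G322 was the reverse case in PDZ3: its substitutions lowered abundance (-0.485) while binding lay above the wild type (0.0688).

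**Figure D4:**
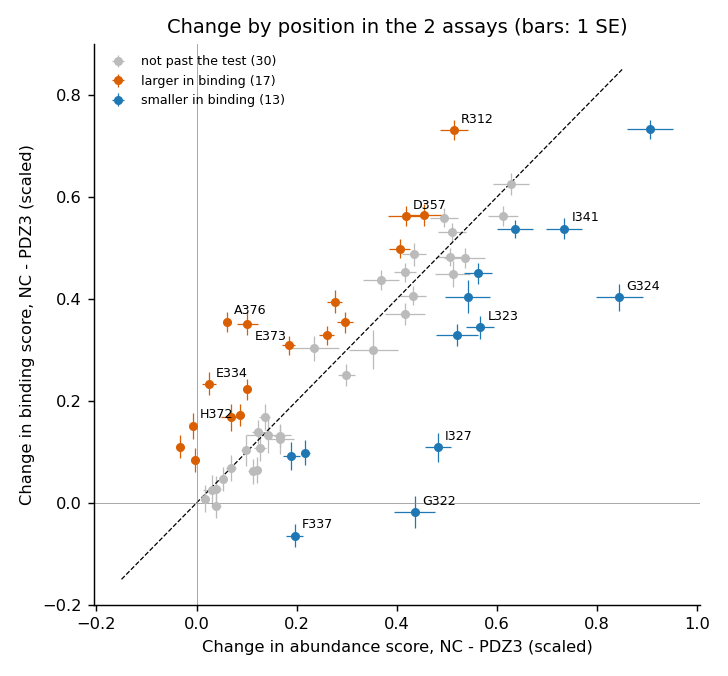
Change of the mean scaled score, NC minus PDZ3, in the abundance assay (horizontal) and in the binding assay (vertical) at 60 positions, with bars of 1 standard error. The dashed line marks equal changes, colours mark the 17 positions with a larger and the 13 with a smaller change in binding, and the 6 furthest on each side are named.

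Beside the constructs with a single extension, NC had the highest mean at 52 of 60 positions, and the order PDZ3, N, C, NC held at 46. The median position score was lowest in PDZ3 (-0.450), followed by N (-0.284), C (-0.143) and NC (-0.0848). Changes taken from PDZ3 would all share the PDZ3 set, so the values are given side by side. At G335 the means of PDZ3, N, C and NC were -0.728, -0.417, -0.113 and 0.00448, and R312 had -0.843, -0.704, -0.226 and -0.111. I327 had -0.880, -0.863, -0.817 and -0.771. F337 broke the order, with -0.213, -0.0860, -0.519 and -0.277, so that its substitutions were most harmful with C alone. V328 was also lowest with C alone (-0.389, -0.333, -0.509 and -0.395), and so were G329 and I377 by small margins.

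Where the changes of N and C were summed, NC lay above the sum at 16.7% of positions (10 of 60) and below it at 35% (21). It was furthest above at G324 (0.159 ± 0.0359), V362 (0.147 ± 0.0284) and F337 (0.116 ± 0.0295). It was furthest below at D366 (-0.262 ± 0.0223), G345 (-0.238 ± 0.0225) and Q358 (-0.220 ± 0.0228). At D366, G345 and Q358 both changes added to PDZ3 would give a score above the wild type. An NC mean at the wild type would therefore also lie below the sum there. At D366 the means of PDZ3, N, C and NC were -0.509, -0.214, -0.0607 and -0.0268, the last 2 both near the wild type. At G324 they were -0.972, -0.947, -0.753 and -0.568. Of the synonymous variants in binding, 5.58% in N and 14.6% in C lay past the test against the wild type. With errors widened by the scatter of nonsense variants, NC lay above the sum at 8 positions and below it at 16.

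Double substitutions were then read against their singles. For 35189 doubles both singles were measured in both constructs, and each double was set against the sum of its singles. Within PDZ3, 38.5% of doubles lay above the sum and 6.74% below it past the test. Within NC, 11.2% lay above and 15.3% below. In PDZ3 many sums lie under the nonsense level, which a score hardly goes below: the 10003 doubles with a sum under -1.6 had a median of -1.02, and only 976 doubles had such a sum in NC. The departure from the sum was higher in NC for 5.2% of doubles and lower for 30.1%. Where both sums were above -0.8, which leaves 10515 doubles, the departure was higher in NC for 15.9% and lower for 3.55%, with p-values adjusted over all doubles.

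**Figure D5:**
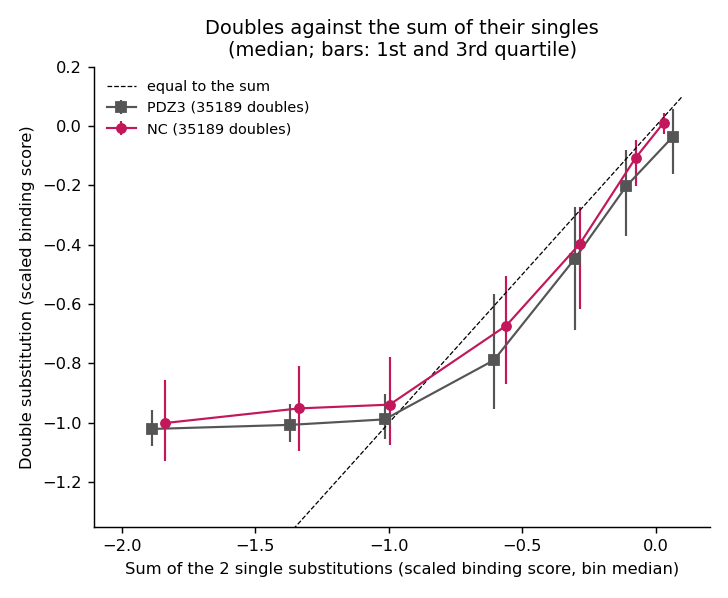
Score of double substitutions against the sum of their singles, both scaled, in PDZ3 and in NC, as medians of 7 bins of the sum with bars from the first to the third quartile. Both constructs level off near -1 once the sum is under -0.8, and between -0.8 and 0 the medians lie below the dashed line of equality.

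Substitutions that NC bore well singly were not always borne together. Among the 890 doubles whose singles were both harmful in PDZ3 and both near the wild type in NC, the median double scored -1.03 in PDZ3 and -0.310 in NC, where the median sum was -0.0837. In NC 512 of the 890 lay below their sum past the test, and 303 (34.0%) were harmful. Of all 35189 doubles, 15.3% lay below their sum and 43.2% were harmful in NC. Of the 11855 doubles with both singles near the wild type in NC, 1690 lay below their sum and 406 (3.42%) were harmful. With 1 harmful and 1 mild single in PDZ3 and both near the wild type in NC (2318 doubles), the median double in NC was -0.0526 and 10 were harmful. The 1521 doubles whose singles were near the wild type in both constructs had a median of -0.118 in PDZ3 and 0.00593 in NC, and 0 were harmful in NC.

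Named pairs, picked for the most negative change of the departure, show how large this could be and are not typical. V362S and L367S scored 0.000478 and -0.0139 in NC as singles, and V362S+L367S scored -1.11 against a sum of -0.0134. I314D+I316E, a pair of acidic residues in strand 1, scored -1.03 against a sum of -0.0825. I359T+L367S scored -1.02 against -0.125, L367R+A370P -1.003 against -0.0592, L367E+A370P -0.909 against -0.0747, and Q358G+L360G -0.664 against -0.0558. I359T alone scored -0.112 in NC, just outside the limit for near the wild type, and cost far more in doubles with a mild partner. In PDZ3 each of these 6 doubles scored between -1.08 and -0.687. In the other direction, 6 doubles whose singles summed to -0.261 or more in PDZ3 were harmful there and near the wild type in NC. Their singles in PDZ3 lay between -0.349 (L323Y) and 0.378 (Q374H). Read through 19 doubles with a mild partner, Q374H had a median of -0.309 in PDZ3, so that the sum of R368D+Q374H is uncertain. I341F+R354A scored -1.07 in PDZ3 against a sum of -0.252, and -0.0429 in NC. L367M+A370C, with a sum near 0 in PDZ3 (0.00304), scored -0.830 there and 0.01002 in NC, and R368L+Q374W scored -0.887 and 0.0738. G322R+L323Y, R368D+Q374H and R368F+Q374M had the same pattern, with -1.01, -0.805 and -1.06 in PDZ3 and -0.0200, 0.0224 and 0.0109 in NC.

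The 6 doubles with the largest rise, all from -1.06 or lower to above the wild type, were V362S+L367F (-1.06 to 0.0637), S371N+Q374P (-1.07 to 0.0576), R368L+Q374P (-1.08 to 0.0434), I338S+S339C (-1.09 to 0.0298), L360S+R368I (-1.07 to 0.0490) and Q358A+L360Y (-1.07 to 0.0473), with errors of the change from 0.0693 to 0.0995. V362S was thus borne with L367F but not with L367S. Of the 6 with the largest fall, 5 held F337. G335P+F337R went from 0.306 ± 0.0487 to -0.199 ± 0.0272 and G335P+F337T from 0.356 ± 0.0767 to -0.0226 ± 0.0263. F337R with V328M, V328I and V328T went from -0.0240, 0.0603 and -0.259 to -0.464, -0.362 and -0.662. G324R+D357S, the sixth, went from -0.543 ± 0.0592 to -1.11 ± 0.0514. Its PDZ3 score lay above that of G324R alone (-0.979). With errors multiplied by 2 the falls of G335P+F337T and of the 3 doubles with V328 did not pass the test, and on the unscaled score those of V328T+F337R (-0.194 ± 0.112) and G324R+D357S (-0.161 ± 0.108) did not.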

How the data were processed

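The authors deposited 1 table that gives, per variant, construct and assay, a score (called fitness), its standard error, a growth rate and its error. Per the labels' protocols the cultures were sequenced as amplicons, with cutadapt and FastQC named in the submitters' processing notes; neither labels nor header say how the score was computed or on which log base. Entries with an error of 50 or more were left out as placeholders, and the NC wild type's error was taken from that of its growth rate, since it had no other entry. The scaled score is the difference from the wild type over the distance from it to the median single nonsense variant, whose error is the error of the scale. Changes were tested with a two-sided normal test on the authors' errors, adjusted over all 36538 variants or all positions with at least 10 substitutions. Positions of a set share wild type and scale, so their tests are not independent, and the tests measure only the spread that the authors' errors hold. The curve was an isotonic regression (scikit-learn 1.9.0, with numpy 2.4.6, pandas 2.3.3 and scipy 1.17.1). A mild partner scored above -0.15, and the cost read from doubles is the median of the double minus its partner. Named items follow ranks of the change in each direction: 8 positions, 8 singles (error under 0.1), 6 doubles, 6 departures from additivity (error under 0.15), 6 positions by curve and 6 by assay, up to 10 singles that crossed both limits, and the contact and core lists. The 3 positions on each side of the sum of N and C, I327T, I327W, R354P and the substitutions shown for G335, R312, I327, H372, G329 and F337 were chosen after their values were seen. Members, lists and tests were chosen with earlier results of these data known. The test was tried on simulated data. Alternatives concerned errors, scale, zero, thresholds and the set of variants.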

Additional observations from a re-analysis of the deposited data

Results flagged for a closer look

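At 12 positions the change from PDZ3 to NC differed between the binding and the abundance assay by the test of the difference itself (normal test, Benjamini-Hochberg over 60 positions), and these are the 6 furthest on each side of 30 such positions in all. The difference, binding minus abundance, was 0.296 at A376, 0.250 at E373, 0.218 at R312, 0.209 at E334, 0.159 at H372 and 0.146 at D357. It was -0.453 at G322, -0.441 at G324, -0.373 at I327, -0.260 at F337, -0.222 at L323 and -0.196 at I341. On the unscaled score, whose unit differs between the constructs, the change at G324, binding minus abundance, did not pass the test (-0.0261). Those at I327, L323 and I341 turned to 0.0865, 0.163 and 0.130. In PDZ3 abundance, 30.1% of the synonymous variants lay past the test against the wild type. At A376, E334 and H372 abundance in PDZ3 was already near the wild type and had little room to rise.

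At 6 positions the change brought by N differed in the presence and in the absence of C, by a test of that difference over 60 positions. The difference was 0.159 at G324, 0.147 at V362 and 0.116 at F337, and -0.262 at D366, -0.238 at G345 and -0.220 at Q358. These are the 3 furthest on each side of 31 positions past the test. At D366, G345 and Q358 the changes of N and C, added to PDZ3, would give a score above the wild type. An NC mean at the wild type would also give a negative difference there. The causes of the differences were not tested.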

How the results depend on the processing

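No paired analysis was possible because the deposited table merges the cultures into 1 value per variant, and for the same reason no culture could be left out. The mean rises of singles and doubles and the count of positions higher in NC kept direction and call under each alternative run. Of 1249 values under alternatives, 1164 kept direction and call, lay within 1.5 times the count or, for distances from the curve, within the standard error. Another 12 changed sign, 29 lost and 9 gained a call. The rest were 26 counts that moved by more than 1.5 times or to 0, and 9 distances from the curve that moved further. With errors multiplied by 2, 7184 doubles were higher and 7 lower in NC, 5 singles and 0 positions were lower, and 11 positions changed more in binding; departures of doubles were higher for 53 and lower for 2758, and NC lay above the sum of N and C at 6 positions and below it at 12. With errors widened by the scatter of late nonsense variants, 45 doubles were lower. At an adjusted p under 0.01, 71 doubles and 17 singles were lower. Without the errors of wild type and scale 42 singles were lower, and with the lowest 5% of singles as the scale 43. Of the 2993 doubles with small errors, 2091 were higher and 67 lower, with departures higher for 395 and lower for 985 of 2867. With sums above -0.8 and adjustment over those doubles alone, the departure was lower for 285.

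On the unscaled score, 25832 doubles were higher and 80 lower, 0 positions were lower, and the assay difference was larger in binding at 39 positions and smaller at 3. The change at F337 was then 0.0771, the change at V328 0.241, the change of H372Y 0.250, and the change at I327, L323 and I341, binding minus abundance, 0.0865, 0.163 and 0.130. A unit of that score stands for a growth rate of 0.102 in PDZ3 and 0.168 in NC. With the growth rate relative to the wild type, the change at V328 was 0.00131, and NC lay above the sum of N and C at 21 positions. The change at V328 was 0.000313 when centred on synonymous variants and 0.0148 when weighted by error. With the median over substitutions 0 positions were lower, and the change at I377, the change at K355 and the change at T321 were -0.0159, -0.00622 and -0.00761, none past the test. The alternatives for the sum of N and C and those without Q374P or G364C were chosen after seeing the data.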

Other observations

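Among the 20 residues put in, tryptophan showed the largest mean rise from PDZ3 to NC (-0.609 to -0.220, 61 substitutions, 0.389 ± 0.0195), followed by phenylalanine (-0.487 to -0.117, 57 substitutions, 0.370 ± 0.0211). Lysine (-0.451 to -0.220, 60 substitutions, 0.231 ± 0.0193) and arginine (-0.494 to -0.258, 56 substitutions, 0.236 ± 0.0189) showed the smallest. Differences between residues were not tested.

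Some singles that scored near the wild type in NC cost more in doubles. Reading through doubles with a mild partner gave lower values in general. Over 1021 singles the median difference, doubles minus single, was -0.0294 in NC and -0.0692 in PDZ3. The groups below were picked by their single scores. Of 151 singles harmful in PDZ3 and near the wild type in NC, the median was -0.0398 as singles and -0.0962 when read through doubles with a mild partner, and 12 lay below -0.25 by that reading. Of 243 singles near the wild type in both constructs, 0 did, and their median was 0.0106 as singles and -0.00524 through doubles. I338G scored -0.0927 as a single and -0.711 through doubles, and I359T, at -0.112 just outside that limit, -0.707.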
